A study of Homo sapiens with 27 samples.

Results

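The proteasome degrades proteins that carry ubiquitin chains, and its subunits are encoded by separate genes across the genome. Its constitutive subunit genes were taken here as every gene in both deposited tables whose Ensembl ID maps to a protein-coding PSMA, PSMB, PSMC or PSMD symbol with a number, or to PSME1, PSME2, PSME3 or PSME4. The 3 immunoproteasome genes PSMB8, PSMB9 and PSMB10 and all pseudogenes were left out. The rule found 40 genes, of 34742 human genes listed for the siRNA libraries and 41686 for the shRNA libraries. A mean of at least 10 normalized counts was passed by 38 of the 40 in each table. The exceptions were PSMA8, a testis form of an alpha subunit, and PSMB11, the thymus form of a catalytic subunit. PSMA8 was at 0 in all 4 circRMST shRNA libraries, against 9.25 and 9.49 in the shGFP libraries, and PSMB11 was at 0 in the same 4, against 7.19 and 0.949. Both were at 0 to 1.41 in the siRNA libraries.

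The measurements were RNA sequencing in 17 libraries, of a series of 27 samples, from SHP77, an established human line of small cell lung cancer. The other 10 samples are ChIP-seq and were not used here. In the siRNA experiment, cells were collected 72 hours after transfection with SOX2 siRNA 1 or 2 (n = 2 each), NKX2-1 siRNA 1 or 2 (n = 2 each) or si-control (n = 3), and a poly(A) kit was used. In the shRNA experiment, cells carried lentiviral circRMST shRNA 1 or 2 or the control shRNA shGFP (n = 2 each), were selected with puromycin at 3 ug/ml for at least 3 days, and were sequenced with a stranded total RNA kit. SOX2 and NKX2-1 are transcription factors, and circRMST is a circular RNA of the noncoding gene RMST. All groups are the same cell line, so every group shares its genome, and nothing states whether replicates came from separate cultures. The p-values then cover no more than the scatter among replicate libraries, and that scatter may be technical.

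Depth was 15.5 to 50.1 megareads in the siRNA libraries and 46.9 to 57.4 megareads in the shRNA libraries. SOX2 averaged 423 normalized counts with the SOX2 siRNAs and 1142 with si-control (log2 fold change -1.43). NKX2-1 averaged 915 with the NKX2-1 siRNAs and 2234 with si-control (log2 fold change -1.29). In the NKX2-1 siRNA libraries SOX2 was itself higher, at 2219 against 1142 (log2 fold change 0.96). In the SOX2 siRNA libraries NKX2-1 was higher, at 2587 against 2234 (0.21). With the circRMST shRNAs NKX2-1 was lower than with shGFP, at 1109 against 1452 (-0.41), and SOX2 was higher, at 2501 against 2113 (0.24). By itself, only shRNA 1 passed for NKX2-1 and only shRNA 2 for SOX2. The deposited RMST count covers the whole gene and is no check of the circle. Neuroendocrine markers (CHGA, SYP, INSM1 and NCAM1) were at 480 normalized counts or more in every library. The fibroblast markers COL1A2 and DCN and the blood markers PTPRC and CD68 were at 0 to 27.7 in every library, and the endothelial marker PECAM1 was at 64.0 to 414. Their part in the results was not tested.

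The catalytic core of the proteasome is a barrel of stacked rings. The outer rings are made of alpha subunits (PSMA genes), which gate the entrance, and the inner rings of beta subunits (PSMB genes), of which PSMB5, PSMB6 and PSMB7 carry the peptidase activities. The core alone admits few folded proteins. A regulatory particle caps it, with a base of ATPases (PSMC genes) that unfold the substrate, scaffold subunits, ubiquitin receptors, and a lid that includes the ubiquitin-removing enzyme PSMD14. Other caps, made of PSME1 with PSME2, of PSME3 or of PSME4, open the core without ATP. In mammalian cells the transcription factor NFE2L1 raises subunit genes together through antioxidant response elements when proteasome activity is short, whereas interferon raises PSME1, PSME2 and the immunoproteasome genes. Tumour cells with a high rate of protein synthesis depend on the complex, and it is the target of bortezomib, which binds PSMB5.

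The start regions of 4 subunit genes are shown because PSMA4 and PSME1 had the largest called rise and fall with the SOX2 siRNAs, PSMD5 had the largest called fall with the circRMST shRNAs, and PSME2 is the partner of PSME1. Sequences are from RefSeq (GRCh38.p14), run 5′ to 3′ on the strand of the gene and end 30 bases into the transcript. Capitals mark every match to an antioxidant response element (TGACNNNGC) or an interferon response element (GAAANNGAAA) on either strand. They lie at chr15:78540155-78540434 (PSMA4, plus strand), chr9:120842893-120843172 (PSMD5, minus strand), chr14:24135944-24136223 (PSME1, plus strand) and chr14:24146581-24146860 (PSME2, minus strand).
PSMA4: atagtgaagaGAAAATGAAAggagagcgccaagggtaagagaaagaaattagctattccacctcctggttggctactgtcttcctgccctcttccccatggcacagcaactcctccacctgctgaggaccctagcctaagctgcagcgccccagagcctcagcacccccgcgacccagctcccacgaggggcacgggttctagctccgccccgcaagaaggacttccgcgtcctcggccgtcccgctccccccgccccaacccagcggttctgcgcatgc
PSMD5: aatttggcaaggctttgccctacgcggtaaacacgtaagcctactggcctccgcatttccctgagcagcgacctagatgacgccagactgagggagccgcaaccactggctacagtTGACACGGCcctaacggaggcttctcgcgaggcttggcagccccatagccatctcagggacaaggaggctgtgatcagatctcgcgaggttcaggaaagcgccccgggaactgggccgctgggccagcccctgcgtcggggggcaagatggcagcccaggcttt
PSME1: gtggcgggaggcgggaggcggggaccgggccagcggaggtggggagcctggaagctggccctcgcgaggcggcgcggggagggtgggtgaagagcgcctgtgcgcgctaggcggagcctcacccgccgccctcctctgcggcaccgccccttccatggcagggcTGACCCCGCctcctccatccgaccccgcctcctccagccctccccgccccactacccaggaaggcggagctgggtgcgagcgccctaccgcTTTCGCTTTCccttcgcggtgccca
PSME2: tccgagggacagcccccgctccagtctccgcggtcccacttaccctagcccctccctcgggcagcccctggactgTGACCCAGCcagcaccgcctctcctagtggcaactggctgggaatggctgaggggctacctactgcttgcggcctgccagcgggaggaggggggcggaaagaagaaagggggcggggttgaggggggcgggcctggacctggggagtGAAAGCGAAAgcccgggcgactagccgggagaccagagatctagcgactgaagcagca
An antioxidant response element was found in PSMD5, PSME1 and PSME2, and an interferon response element in PSMA4, PSME1 and PSME2.

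With the SOX2 siRNAs, most subunit genes were modestly higher than with si-control, and the caps PSME1 and PSME2 were lower. Of the 38 genes tested, 27 rose (71.1%) and 2 fell (5.26%), and 9 did not pass the test. Of all 16750 genes tested, 27.6% rose and 28.7% fell, and of genes with a mean of at least 1000, 45.7% rose and 26.9% fell. The median log2 fold change of the subunit genes was 0.27, which is 1.20-fold (range -0.78 to 0.59), beside 0.01 over all genes. In 28 of the 38 every SOX2 siRNA library lay above every si-control library, against 24.5% of all genes, and in 2 every one lay below, against 25.0%. Each SOX2 siRNA alone gave 29 higher subunit genes, beside 25.8% of all genes with siRNA 1 and 24.4% with siRNA 2. Lower were 4 with siRNA 1, beside 27.3%, and 3 with siRNA 2, beside 24.7%. Both siRNAs passed in the same direction for 25 higher and 2 lower subunit genes, beside 18.6% and 19.3% of all genes.

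**Figure D1:**
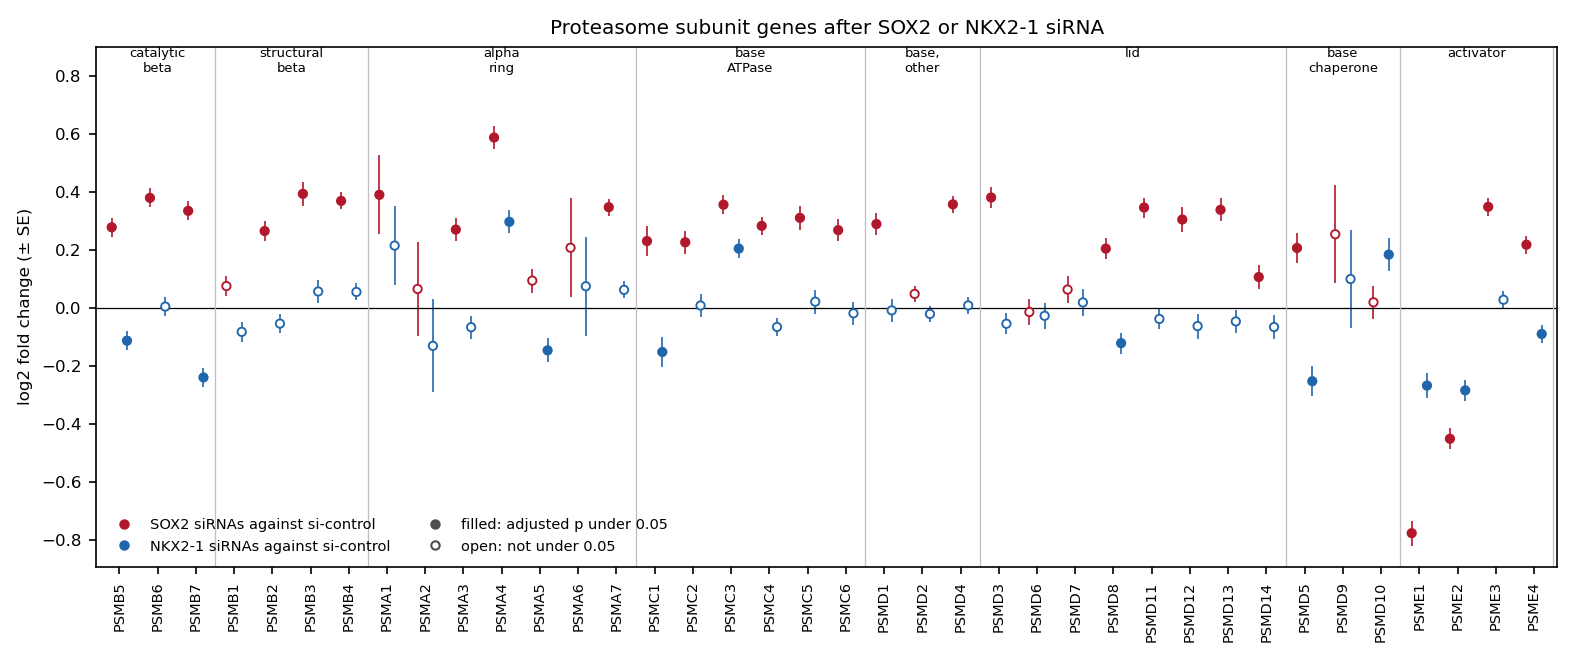
Log2 fold changes (± SE) of the 38 tested subunit genes, grouped by role, for the SOX2 siRNAs (red) and the NKX2-1 siRNAs (blue) against the same si-control libraries; filled points passed the adjusted p of 0.05. With the SOX2 siRNAs 27 rose, and with the NKX2-1 siRNAs 3 rose and 9 fell.

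The 3 catalytic genes rose with the SOX2 siRNAs. PSMB5 (ENSG00000100804.18, chr14:23025851-23035220), the chymotrypsin-like peptidase, had 4946 and 4959 normalized counts with SOX2 siRNA 1 and 5407 and 5146 with siRNA 2, against 4192, 4221 and 4237 with si-control. All 4 knockdown libraries were above all 3 control libraries. The log2 fold change was 0.28 (SE 0.03, limma adjusted p = 3.46e-08). PSMB6 (ENSG00000142507.9, chr17:4796164-4798495), the caspase-like peptidase, had 5246 and 5332 with siRNA 1 and 5745 and 6042 with siRNA 2, against 4332, 4335 and 4213. Its groups did not overlap either, and the log2 fold change was 0.38 (SE 0.03, adjusted p = 1.36e-10). PSMB7 (ENSG00000136930.12, chr9:124353465-124415442), the trypsin-like peptidase, had 4611 and 4516 with siRNA 1 and 4917 and 4857 with siRNA 2, against 3698, 3845 and 3697. The 4 knockdown libraries again lay above the controls, with a log2 fold change of 0.33 (SE 0.03, adjusted p = 1.89e-09).

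Among the other core genes, 3 of 4 structural beta genes and 4 of 7 alpha genes rose with the SOX2 siRNAs, and none fell. PSMA4 (ENSG00000041357.15, chr15:78540405-78552417), an alpha ring subunit whose start region is printed above, had 3399 and 3704 with siRNA 1 and 3812 and 3782 with siRNA 2, against 2471, 2418 and 2443 with si-control. Every knockdown library was above every control, and the 1.50-fold difference was the largest rise among the subunit genes (log2 fold change 0.59, SE 0.04, adjusted p = 8.64e-13). PSMB3, a structural beta subunit, had 3230 and 3067 with siRNA 1 and 3197 and 3310 with siRNA 2, against 2597, 2386 and 2335. The groups did not overlap (log2 fold change 0.39, SE 0.04, adjusted p = 3.43e-09). The other called core genes were PSMB2 (0.26), PSMB4 (0.37), PSMA3 (0.27), PSMA7 (0.35) and PSMA1 on the log2 scale. PSMA1, an alpha subunit with few counts in these tables, had 117 and 145 with siRNA 1 and 128 and 117 with siRNA 2, against 102, 101 and 86.0. Its log2 fold change was 0.39 (SE 0.14, adjusted p = 0.0170). That call was lost without si-control replicate 3 (0.31, adjusted p = 0.0916), without SOX2 siRNA 1 replicate 2 (0.31, 0.0765) and without SOX2 siRNA 2 replicate 1 (0.36, 0.0531). PSMB1 (log2 fold change 0.08, adjusted p = 0.0643) and PSMA5 (0.09, adjusted p = 0.0542) did not pass.

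In the regulatory particle, all 6 ATPase genes of the base rose with the SOX2 siRNAs, with log2 fold changes of 0.23 to 0.36. PSMC3 was the highest of these, with 5389 and 5106 normalized counts with siRNA 1 and 5652 and 5769 with siRNA 2, against 4265, 4240 and 4328 with si-control (adjusted p = 4.72e-10). The scaffold gene PSMD1 (0.29) and the ubiquitin receptor gene PSMD4 (0.36) rose, and the scaffold gene PSMD2 did not pass (0.05, adjusted p = 0.155). Of 8 lid genes, 6 rose. PSMD3, a structural lid subunit, had 6147 and 5873 with siRNA 1 and 5757 and 5903 with siRNA 2, against 4424, 4504 and 4717. The groups were apart by more than 1000 counts (log2 fold change 0.38, SE 0.04, adjusted p = 7.08e-10). PSMD14, the ubiquitin-removing enzyme, rose by less (0.11, adjusted p = 0.0315), and did not pass with quantile normalization or with totals that leave out mitochondrial and RN7SL genes, where 5 lid genes rose. The lid genes PSMD6 (-0.01) and PSMD7 (0.06) did not pass. Among the 3 chaperones that assemble the base, PSMD5 rose (0.21, SE 0.05, adjusted p = 0.00127) and PSMD9 and PSMD10 did not pass.

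The caps that work without ATP split with the SOX2 siRNAs. PSME1 (ENSG00000092010.14, chr14:24136194-24138962) had 1174 and 1120 with SOX2 siRNA 1 and 1478 and 1632 with siRNA 2, against 2302, 2282 and 2273 with si-control. It was 1.71-fold lower (log2 fold change -0.78, SE 0.04, adjusted p = 1.44e-14), with siRNA 1 lower than siRNA 2 (-0.99 and -0.56). PSME2 (ENSG00000100911.14, chr14:24143365-24146610), which forms a mixed ring with PSME1, had 1988 and 2052 with siRNA 1 and 2531 and 2521 with siRNA 2, against 3061, 3183 and 3020. It was 1.37-fold lower (log2 fold change -0.45, SE 0.04, adjusted p = 4.11e-11), again with siRNA 1 below siRNA 2 (-0.61 and -0.29). PSME3, the nuclear cap, had 7771 and 7677 with siRNA 1 and 6464 and 6618 with siRNA 2, against 5689, 5623 and 5443, and rose (0.35, SE 0.03, adjusted p = 2.21e-10). PSME4, the cap linked to histone turnover, rose as well (0.22).

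**Figure D2:**
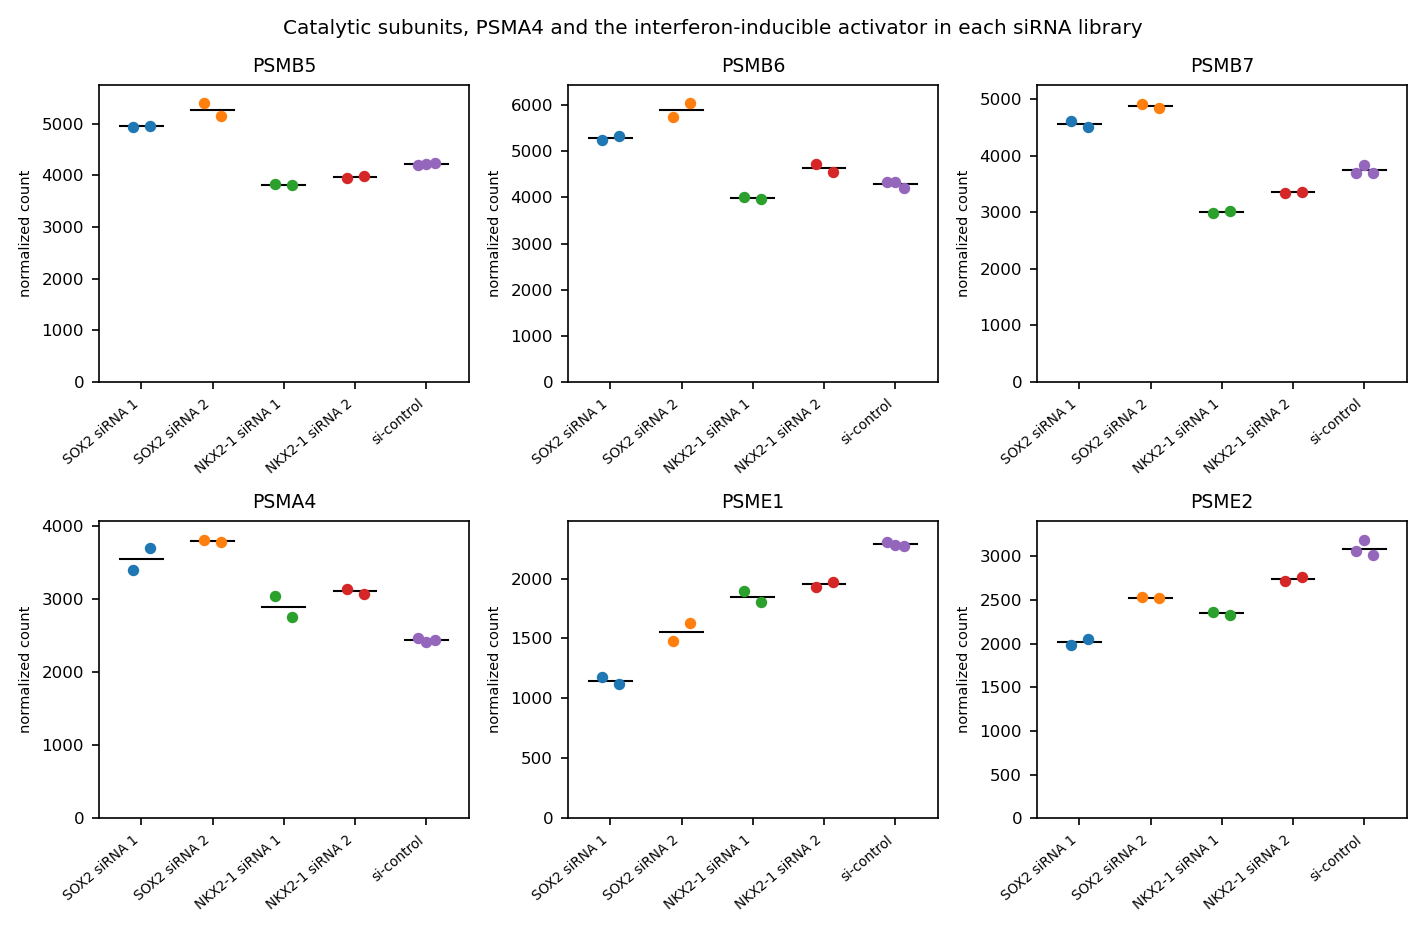
Normalized counts of 6 subunit genes in each siRNA library, with the SOX2 siRNAs at the left, the NKX2-1 siRNAs in the middle and si-control at the right; each point is a library and each line a group mean. PSMB5, PSMB6, PSMB7 and PSMA4 are above si-control in all 4 SOX2 siRNA libraries, and PSME1 and PSME2 are below it.

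As a share of all reads, the 38 tested and 2 untested subunit genes together took 0.709% to 0.743% in the SOX2 siRNA libraries, 0.611% to 0.631% in the NKX2-1 siRNA libraries and 0.603% to 0.611% in the si-control libraries. Without mitochondrial and RN7SL genes in the total, the shares were 0.774% to 0.798%, 0.658% to 0.686% and 0.672% to 0.680% in the same order of groups. The SOX2 siRNA libraries were above the others on both scales, and the NKX2-1 siRNA and si-control libraries overlapped on the second. These shares add up genes of different levels, so abundant subunit genes weigh most. Fewer cells that use a gene and less RNA per cell cannot be told apart in bulk RNA.

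With the NKX2-1 siRNAs, few subunit genes rose, and the share that fell was near that of all genes. Of 38 tested, 3 rose (7.89%) and 9 fell (23.7%), beside 18.5% and 21.4% of all genes (25.3% and 31.0% of those with a mean of at least 1000). In 3 genes every knockdown library was above every control and in 9 below, beside 15.9% and 18.0% of all genes. The median log2 fold change was -0.03 (range -0.28 to 0.30). With every library scaled to the same total, which moved the median of all genes to 0.05 on the log2 scale, 7 rose and 4 fell. The counts over all 16750 genes moved the same way, from 3092 higher and 3592 lower to 4224 and 2643. With NKX2-1 siRNA 1 alone 2 rose and 14 fell, beside 17.4% and 21.5% of all genes, and with siRNA 2 alone 6 rose and 5 fell, beside 16.0% and 17.5%. Both NKX2-1 siRNAs passed with the same sign for 2 higher genes, PSMA4 and PSMC3, and 4 lower genes, PSMB7, PSMD5, PSME1 and PSME2, beside 8.88% and 10.2% of all genes. The same 3 si-control libraries serve both knockdowns, so the values of each are given side by side and their likeness was not tested.

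Of the catalytic genes, PSMB7 had 2982 and 3019 normalized counts with NKX2-1 siRNA 1 and 3343 and 3364 with siRNA 2, against 3698, 3845 and 3697 with si-control. All 4 knockdown libraries were below the controls (log2 fold change -0.24, SE 0.03, adjusted p = 1.44e-06). PSMB5 had 3835 and 3811 with siRNA 1 and 3958 and 3994 with siRNA 2, against 4192, 4221 and 4237, a log2 fold change of -0.11 (SE 0.03, adjusted p = 0.00624). With equal library totals it was -0.05 and did not pass (adjusted p = 0.185). PSMB6 had 4008 and 3976 with siRNA 1 and 4731 and 4559 with siRNA 2, against 4332, 4335 and 4213. The siRNAs lay on opposite sides of the control, and their mean did not pass (0.00, adjusted p = 0.930).

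PSMA4 was the subunit gene with the largest rise here too, with 3042 and 2757 normalized counts with NKX2-1 siRNA 1 and 3148 and 3073 with siRNA 2, against 2471, 2418 and 2443 with si-control (log2 fold change 0.30, SE 0.04, adjusted p = 8.01e-07). PSMC3, a base ATPase, had 4819 and 5043 with siRNA 1 and 4944 and 4908 with siRNA 2, against 4265, 4240 and 4328 (0.20, SE 0.03, adjusted p = 1.31e-05). Neither gene overlapped its controls. PSMD10, a base chaperone also called gankyrin, had 890 and 858 with siRNA 1 and 899 and 977 with siRNA 2, against 775, 820 and 796 (0.18, SE 0.06, adjusted p = 0.0114). Its call was lost without si-control replicate 1 (0.16, adjusted p = 0.0599) and without NKX2-1 siRNA 2 replicate 2 (0.15, adjusted p = 0.0661). PSMD5, another base chaperone, had 984 and 911 with siRNA 1 and 987 and 974 with siRNA 2, against 1104, 1113 and 1232 (-0.25, SE 0.05, adjusted p = 0.000275). The cap gene PSME1 had 1893 and 1803 with siRNA 1 and 1930 and 1973 with siRNA 2, against 2302, 2282 and 2273 (-0.27, SE 0.04, adjusted p = 1.35e-05). PSME2 had 2363 and 2330 with siRNA 1 and 2712 and 2768 with siRNA 2, against 3061, 3183 and 3020 (-0.28, SE 0.04, adjusted p = 4.80e-07). For PSMD5, PSME1 and PSME2 all knockdown libraries were below all controls. The other called falls were small: PSMA5 (-0.15), PSMC1 (-0.15), PSMD8 (-0.12) and PSME4 (-0.09). These 4 did not pass with equal library totals, and PSME4 also did not pass with totals that leave out mitochondrial and RN7SL genes.

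Set directly against each other, with no control library in the contrast, the SOX2 siRNAs gave 29 higher and 3 lower subunit genes than the NKX2-1 siRNAs, beside 27.9% and 28.0% of all genes (47.8% and 25.0% of those with a mean of at least 1000). The median log2 difference was 0.29. In 27 of 38 genes all 4 SOX2 siRNA libraries lay above all 4 NKX2-1 siRNA libraries, beside 18.0% of all genes, and in 1 they lay below, beside 17.3%. PSMB7 had the largest positive difference, 4516 to 4917 normalized counts with the SOX2 siRNAs and 2982 to 3364 with the NKX2-1 siRNAs (log2 difference 0.57, SE 0.03, adjusted p = 7.59e-15). Among the higher genes PSMD5 came next, at 1278 to 1383 with the SOX2 siRNAs and 911 to 987 with the NKX2-1 siRNAs (0.46, SE 0.05, adjusted p = 4.94e-09). PSMD3 was at 5757 to 6147 with the SOX2 siRNAs and 4086 to 4590 with the NKX2-1 siRNAs (0.43, SE 0.03, adjusted p = 1.17e-11). PSMB5 differed by 0.39 (SE 0.03, adjusted p = 1.24e-11) and PSMB6 by 0.37 (SE 0.03, adjusted p = 3.95e-11). Lower with the SOX2 siRNAs were PSME1, at 1120 to 1632 with the SOX2 siRNAs and 1803 to 1973 with the NKX2-1 siRNAs (-0.51, SE 0.04, adjusted p = 2.11e-11), PSME2 (-0.17, adjusted p = 0.000144) and PSMD10 (-0.16, adjusted p = 0.00979).

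Some subunit genes differed between the siRNAs of a factor. With SOX2 siRNA 1 and siRNA 2, PSMD2, PSMD6 and PSMD10 each passed in opposite directions against si-control, beside 1.01% of all genes. These 3 were singled out after their values had been seen, and the siRNA 1 minus siRNA 2 contrast was added then. PSMD6, a lid subunit, had 1878 and 2087 normalized counts with siRNA 1 and 2959 and 2900 with siRNA 2, against 2478, 2553 and 2273 with si-control. The log2 difference between the siRNAs was -0.57 (SE 0.06, adjusted p = 3.13e-08). PSMD2, the scaffold subunit, had 9105 and 8909 with siRNA 1 and 11042 and 11355 with siRNA 2, against 9609, 9838 and 9697 (-0.31, SE 0.04, adjusted p = 3.29e-07). PSMD10 had 888 and 1024 with siRNA 1 and 663 and 706 with siRNA 2, against 775, 820 and 796 (0.48, SE 0.07, adjusted p = 2.75e-05). The siRNAs lay on either side of the control in these 3 genes, so their mean near 0 hides both changes. In this contrast 3 subunit genes were higher with siRNA 1 (PSMD10, PSME3 and PSMD14) and 6 lower (PSMD6, PSME1, PSMD2, PSME2, PSMB6 and PSMC3), beside 8.08% and 10.4% of all genes. Between the NKX2-1 siRNAs, 1 subunit gene was higher with siRNA 1 (PSMC4, 0.10) and 15 were lower, by -0.11 to -0.22, beside 11.7% and 14.8% of all genes. Under equal library totals these counts were 2 and 3, and without NKX2-1 siRNA 2 replicate 2 they were 0 and 5. Without siRNA 1 replicate 2 they were 0 and 7, and without siRNA 2 replicate 1 they were 0 and 9. PSMB6 passed in opposite directions with the NKX2-1 siRNAs, beside 1.78% of all genes (siRNA 1 minus siRNA 2 was -0.22, SE 0.04, adjusted p = 0.000316).

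**Figure D3:**
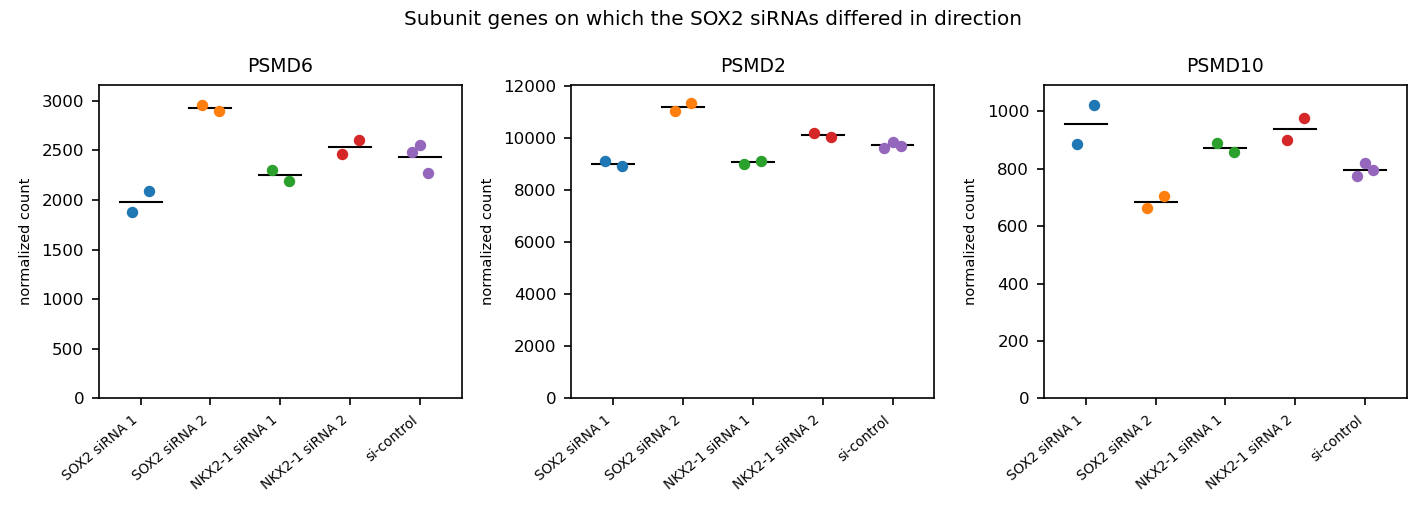
Normalized counts of PSMD6, PSMD2 and PSMD10 in the libraries of SOX2 siRNA 1, SOX2 siRNA 2, NKX2-1 siRNA 1, NKX2-1 siRNA 2 and si-control. Each point is a library and each line a group mean. In each gene the SOX2 siRNAs lie on opposite sides of the control.

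PSMD10 overlaps ATG4A, and PSMD6 overlaps antisense genes, while the counting of strand is not given in the sources used here. ATG4A was higher with both SOX2 siRNAs (log2 fold change 0.78 with siRNA 1 and 0.57 with siRNA 2), and the siRNAs did not pass against each other (0.22, adjusted p = 0.187). The antisense gene PSMD6-AS2 averaged 22.6 normalized counts with each SOX2 siRNA and 11.3 with si-control. Reads of an antisense gene and of PSMD6 cannot be told apart without strand. In all, 17 of the 40 subunit genes overlap another annotated gene. Reads listed under 31 proteasome pseudogenes came to 0.0518% to 0.0716% of the reads of the 40 genes in the siRNA libraries and 0.103% to 0.176% in the shRNA libraries.

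With the circRMST shRNAs, subunit genes moved in both directions. Of 38 tested, 14 rose (36.8%) and 10 fell (26.3%), beside 27.8% and 25.9% of all 19068 genes tested (45.8% and 27.2% of those with a mean of at least 1000). The median log2 fold change was 0.04 (range -0.90 to 0.50). The split depends on the scaling: with every library set to the same total, 4 rose and 17 fell. The counts over all 19068 genes moved the same way, from 5294 higher and 4936 lower to 3636 and 6513. The median of all genes moved to -0.14. In 11 genes every knockdown library was above both shGFP libraries and in 8 below, beside 28.6% and 28.2% of all genes. With circRMST shRNA 1 alone 17 rose and 5 fell, beside 26.7% and 24.2% of all genes, and with shRNA 2 alone 8 rose and 13 fell, beside 24.5% and 22.9%. Both shRNAs passed with the same sign for 8 higher and 5 lower genes, beside 19.6% and 17.4%, and with opposite signs for 0, beside 0.519%. Without shGFP replicate 1 the counts were 11 higher and 6 lower.

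**Figure D4:**
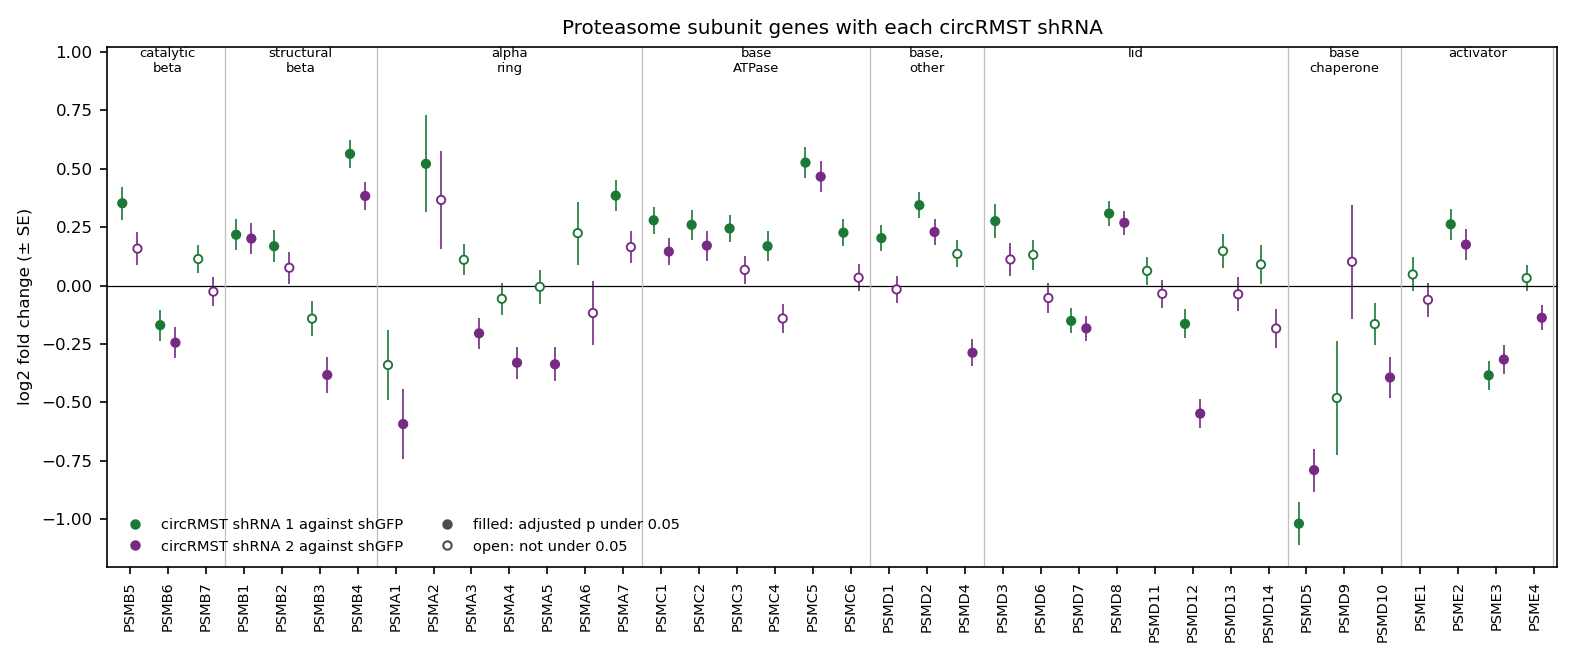
Log2 fold changes (± SE) of the 38 tested subunit genes, grouped by role, for circRMST shRNA 1 (green) and circRMST shRNA 2 (purple), each against the 2 shGFP libraries; filled points passed the adjusted p of 0.05. PSMD5 is lowest with both shRNAs, and most shRNA 1 points lie above the shRNA 2 points.

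PSMD5 (ENSG00000095261.13, chr9:120816053-120842922) had the largest change. This chaperone helps to assemble the base and can inhibit the complex. It had 747 and 682 normalized counts with circRMST shRNA 1 and 788 and 887 with shRNA 2, against 1458 and 1435 with shGFP. All 4 knockdown libraries were far below the controls, and the gene was 1.87-fold lower (log2 fold change -0.90, SE 0.08, adjusted p = 1.58e-09). Another base chaperone, PSMD10, also fell (-0.28, adjusted p = 0.00389), and PSMD9 did not pass (-0.19, adjusted p = 0.471). By itself, shRNA 2 passed for PSMD10 and shRNA 1 did not. In the siRNA table, which was normalized separately, PSMD5 rose with the SOX2 siRNAs and fell with the NKX2-1 siRNAs, and the difference between the tables was not tested.

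Among the catalytic genes, PSMB5 had 3110 and 3064 with circRMST shRNA 1 and 2601 and 2797 with shRNA 2, against 2548 and 2294 with shGFP. All knockdown libraries were above the controls, with shRNA 2 close to them (0.26, SE 0.06, adjusted p = 0.00105). By itself, shRNA 1 passed for PSMB5 and shRNA 2 did not. Without shGFP replicate 2 the rise over both shRNAs did not pass (0.18, adjusted p = 0.0572), nor with equal library totals (0.11, adjusted p = 0.133). PSMB6 had 3151 and 2979 with shRNA 1 and 3008 and 2812 with shRNA 2, against 3357 and 3537 (-0.21, SE 0.06, adjusted p = 0.00384). Its fall did not pass without shGFP replicate 2 (-0.17, adjusted p = 0.0736). PSMB7 had 4429 and 4513 with shRNA 1 and 3918 and 4204 with shRNA 2, against 4239 and 4028. The groups overlapped and it did not pass (0.04, adjusted p = 0.514). Of the 3 catalytic genes, 1 rose, 1 fell and 1 did not pass.

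Of the structural beta genes, PSMB4 had 6814 and 6472 normalized counts with circRMST shRNA 1 and 5834 and 5891 with shRNA 2, against 4704 and 4294 with shGFP (log2 fold change 0.47, SE 0.05, adjusted p = 6.16e-08). PSMB1 rose (0.21) and PSMB3 fell (-0.26). Of 7 alpha genes, PSMA2 (0.44, adjusted p = 0.0418) and PSMA7 (0.27) rose, and PSMA1, PSMA4 (-0.19) and PSMA5 (-0.17) fell. None of these alpha genes passed with each shRNA by itself. PSMA2 and PSMA7 passed only with shRNA 1, and PSMA1, PSMA4, PSMA5 and the beta gene PSMB3 only with shRNA 2. Under equal library totals 0 alpha genes rose and 4 fell, and PSMA2 did not pass with quantile normalization or with totals without mitochondrial and RN7SL genes either. PSMA1 had 270 and 238 with shRNA 1 and 219 and 207 with shRNA 2, against 317 and 325 (-0.47, SE 0.13, adjusted p = 0.00406). PSMA1 and PSMA2 are among the subunit genes with the fewest counts, so counting error is larger for them.

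In the base, 5 of 6 ATPase genes rose with the circRMST shRNAs, beside 27.8% of all genes (45.8% of those with a mean of at least 1000). PSMC5 led them, with 2888 and 3021 with shRNA 1 and 2861 and 2805 with shRNA 2, against 2009 and 2094 with shGFP. Every knockdown library was above both controls (log2 fold change 0.50, SE 0.06, adjusted p = 1.32e-07). PSMC5 overlaps FTSJ3 in the annotation, and FTSJ3 was also higher with the circRMST shRNAs (0.40 with shRNA 1 and 0.17 with shRNA 2, 0.29 over both, adjusted p = 0.000365) and with the SOX2 siRNAs (0.28). The part of shared reads was not tested. The other risers were PSMC1 (0.21), PSMC2 (0.22), PSMC3 (0.16) and PSMC6 (0.13), and PSMC4 did not pass (0.01). PSMC3 and PSMC6 passed with shRNA 1 by itself and not with shRNA 2. With equal library totals, 1 ATPase gene rose and 1 fell. The scaffold gene PSMD2 had 7019 and 7076 with shRNA 1 and 6651 and 6368 with shRNA 2, against 5682 and 5425 (0.29, SE 0.05, adjusted p = 3.14e-05). In the lid, PSMD8 had 11508 and 11319 with shRNA 1 and 11158 and 11050 with shRNA 2, against 9137 and 9300 (0.29, SE 0.05, adjusted p = 9.75e-06). PSMD3 rose by 0.19, and by itself passed with shRNA 1 and not with shRNA 2. PSMD12, also a lid subunit, had 3757 and 3877 with shRNA 1 and 2953 and 2897 with shRNA 2, against 4389 and 4166 (-0.36, SE 0.05, adjusted p = 6.01e-06). Its fall was -0.16 with shRNA 1 and -0.55 with shRNA 2, and the lid gene PSMD7 fell by 0.17.

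The nuclear cap PSME3 had 4363 and 4136 with circRMST shRNA 1 and 4478 and 4426 with shRNA 2, against 5288 and 5812 with shGFP. All knockdown libraries were below the controls (log2 fold change -0.35, SE 0.05, adjusted p = 7.80e-06). PSME2 rose (0.22, adjusted p = 0.0028), and PSME1 and PSME4 did not pass. Under equal library totals PSME2 did not pass, and PSME1 and PSME4 fell with PSME3. The 40 genes together took 0.307% to 0.311% of reads with shRNA 1, 0.276% to 0.278% with shRNA 2 and 0.307% to 0.316% with shGFP. The mitochondrial transcript MT-RNR2 alone took 40.5% to 45.4% of reads in these total RNA libraries, and RN7SL genes took 0.379% to 0.467% with the circRMST shRNAs and 0.180% to 0.186% with shGFP. Without both, the shares were 0.601% to 0.612% with shRNA 1, 0.568% to 0.574% with shRNA 2 and 0.588% to 0.594% with shGFP. In a fit with totals that leave out mitochondrial and RN7SL genes, 10 subunit genes rose and 12 fell with the circRMST shRNAs. Over all 19068 genes 4563 rose and 5480 fell in that fit.

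**Figure D5:**
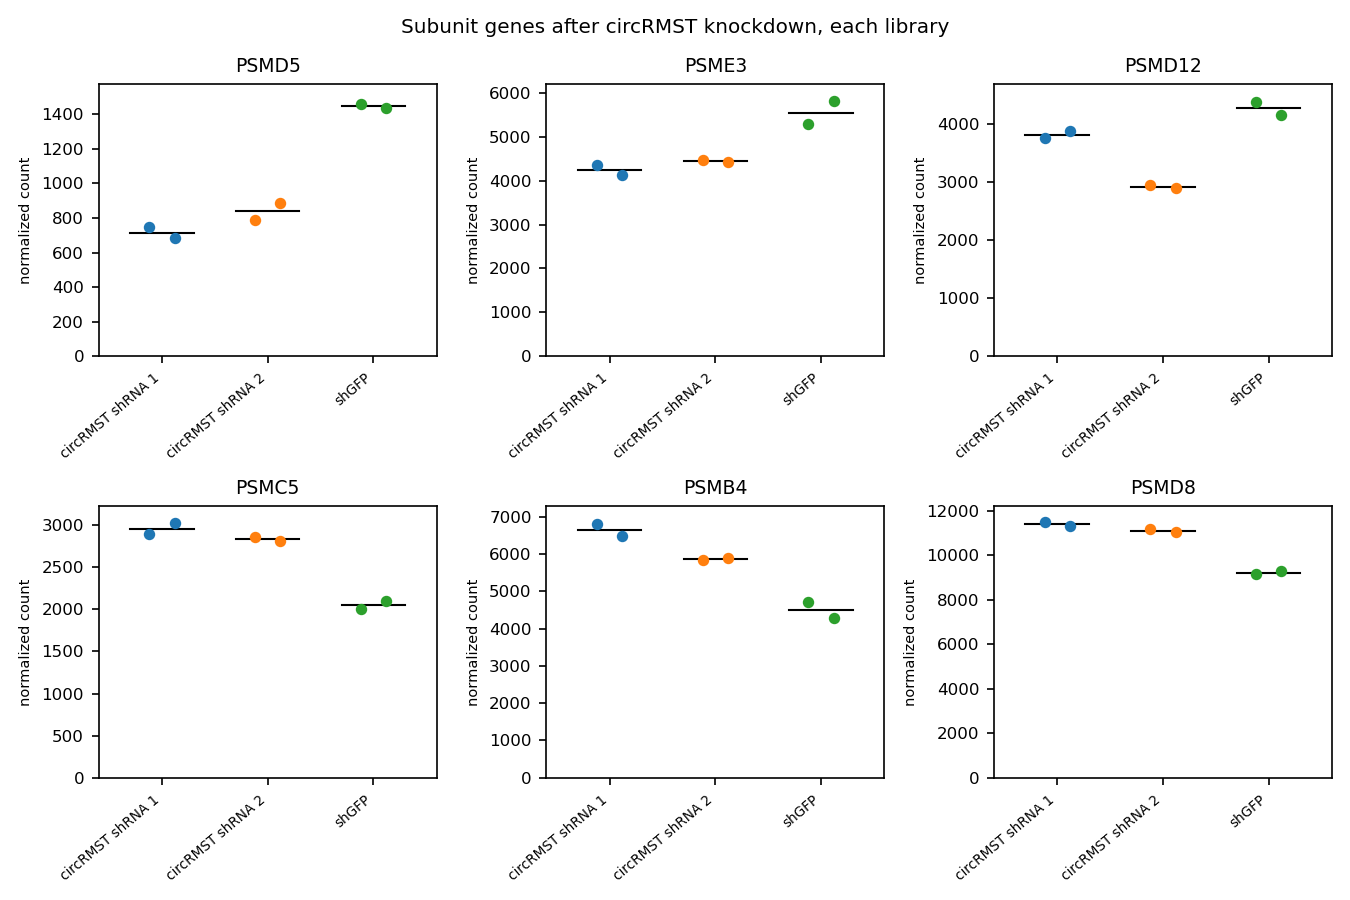
Normalized counts of 6 subunit genes in each shRNA library, with circRMST shRNA 1 and shRNA 2 at the left and shGFP at the right; each point is a library and each line a group mean. PSMD5, PSME3 and PSMD12 are below shGFP in all 4 knockdown libraries, and PSMC5, PSMB4 and PSMD8 are above it.

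Between the circRMST shRNAs, 15 subunit genes were higher with shRNA 1 and 0 were lower by limma, beside 10.9% and 8.20% of all genes (22.0% and 13.2% of those with a mean of at least 1000). The 0 depends on the threshold, since at an unadjusted p under 0.05, 22 were higher and 2 lower. No count over all genes was made at that threshold, so those counts cannot be read as a shift of the subunit genes. By edgeR 14 and 0 passed, beside 2058 and 1673 of all 19068 genes. By DESeq2 15 and 0 passed, beside 1884 and 1335. The median log2 difference was 0.17. PSMD4, the ubiquitin receptor gene, had 7337 and 7120 with shRNA 1 and 5543 and 5242 with shRNA 2 (0.42, SE 0.06, adjusted p = 9.15e-06), with shGFP between them at 6724 and 6438. PSMD12 differed by 0.38 (SE 0.06, adjusted p = 8.10e-05), PSMA5 by 0.33 and PSMC4 by 0.31. The count fell to 6 higher and 1 lower when mitochondrial and RN7SL genes were left out of the totals, and to 6 when a library was left out (circRMST shRNA 1 replicate 1 or circRMST shRNA 2 replicate 1).

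The pathway around the subunit genes was counted in lists of assembly factors, associated ubiquitin enzymes and receptors, immunoproteasome genes, NFE2L1 regulators, ubiquitin genes and VCP cofactors. Of all genes tested, 27.6% rose and 28.7% fell with the SOX2 siRNAs, 18.5% and 21.4% with the NKX2-1 siRNAs, and 27.8% and 25.9% with the circRMST shRNAs, and several list counts are near these shares. Of 7 assembly factors, which build the core and bring the complex to the nucleus, 5 rose and 0 fell with the SOX2 siRNAs, 2 rose and 2 fell with the NKX2-1 siRNAs, and 3 rose and 2 fell with the circRMST shRNAs. Their median log2 fold changes were 0.17, -0.04 and 0.04 in that order. The circRMST counts were 1 and 3 with equal library totals. PSMG4, a core chaperone, rose in each: by 0.56 with the SOX2 siRNAs (SE 0.08, adjusted p = 1.10e-06), 0.44 with the NKX2-1 siRNAs and 0.32 with the circRMST shRNAs, where it did not pass with equal totals. Of 14 associated factors, 11 rose and 1 fell with the SOX2 siRNAs, 2 rose and 4 fell with the NKX2-1 siRNAs, and 5 rose and 3 fell with the circRMST shRNAs, with medians of 0.23, -0.03 and 0.06. The circRMST counts became 5 and 6 with equal library totals. ADRM1, a ubiquitin receptor of the base, had 1865 and 1728 normalized counts with SOX2 siRNA 1 and 1975 and 1871 with siRNA 2, against 1307, 1255 and 1325 with si-control (0.52, SE 0.05, adjusted p = 3.69e-10). It had 6653 and 6138 with circRMST shRNA 1 and 5316 and 5027 with shRNA 2, against 3448 and 3648 with shGFP (0.70, SE 0.05, adjusted p = 1.54e-10). UBE3C, a ubiquitin ligase found at the complex, rose by 1.17 with the circRMST shRNAs (SE 0.05, adjusted p = 6.93e-15) and fell with the NKX2-1 siRNAs (-0.28).

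Of the 3 immunoproteasome genes, which replace the catalytic subunits, 2 fell with the SOX2 siRNAs and 1 with the NKX2-1 siRNAs, and none passed with the circRMST shRNAs, with medians of -0.87, -0.14 and 0.17. PSMB9 also fell with the circRMST shRNAs under equal library totals. PSMB9 had 14.9 and 13.5 normalized counts with SOX2 siRNA 1 and 18.7 and 21.5 with siRNA 2, and 76.4 and 73.2 with NKX2-1 siRNA 1 and 63.1 and 49.4 with siRNA 2, against 94.8, 113 and 145 with si-control. The log2 fold change was -2.71 with the SOX2 siRNAs (SE 0.19, adjusted p = 3.03e-12) and -0.83 with the NKX2-1 siRNAs (SE 0.19, adjusted p = 0.00106). PSMB8 had 136 and 156 with SOX2 siRNA 1 and 187 and 152 with siRNA 2, against 292, 285 and 285 (-0.87, SE 0.10, adjusted p = 2.45e-08). In the SOX2 siRNA libraries these genes and the caps PSME1 and PSME2 were lower while PSMB5, PSMB6 and PSMB7 were higher.

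Of 7 genes of the NFE2L1 pathway, 5 rose and 0 fell with the circRMST shRNAs, beside 27.8% and 25.9% of all genes, and under equal totals, equal totals without mitochondrial and RN7SL genes and quantile normalization the counts were also 5 and 0. The median log2 fold change of the list was 0.50 with the circRMST shRNAs, -0.13 with the SOX2 siRNAs and -0.32 with the NKX2-1 siRNAs. NFE2L1 had 9403 and 9766 normalized counts with circRMST shRNA 1 and 9784 and 8880 with shRNA 2, against 4380 and 4616 with shGFP (1.07, SE 0.05, adjusted p = 3.65e-14), and its partner MAFG rose by 0.92 (SE 0.06, adjusted p = 2.92e-11). In those libraries 14 subunit genes rose and 10 fell. With the SOX2 siRNAs 1 gene of the list rose, the protease DDI2 that activates NFE2L1 (0.65, SE 0.06, adjusted p = 1.49e-09), and 4 fell. With the NKX2-1 siRNAs DDI2 rose (0.41) and 4 fell, among them MAFK (-0.66) and NGLY1 (-0.62). Of 6 ubiquitin and E1 genes, 2 rose and 0 fell with the SOX2 siRNAs, beside 27.6% and 28.7% of all genes. With the NKX2-1 siRNAs 1 rose and 2 fell, beside 18.5% and 21.4%. With the circRMST shRNAs 4 rose and 2 fell, beside 27.8% and 25.9%. The medians were 0.02, -0.04 and 0.22 in that order. Of 6 genes of VCP, the segregase that feeds the proteasome, and its cofactors, 4 rose with the SOX2 siRNAs, 1 with the NKX2-1 siRNAs and 2 with the circRMST shRNAs, where 2 others fell (medians 0.19, -0.03 and 0.06). NPLOC4 rose by 0.39 with the SOX2 siRNAs and by 0.80 with the circRMST shRNAs.

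Promoters of 35 of the 40 genes were in the RefSeq table, and those of PSMB7, PSMB6, PSMB1, PSMD4 and PSMA7 were not used here. Windows of 300 bases, from 250 before to 50 after the start, were searched on both strands and set beside all 35116 promoters of that table. The antioxidant response element TGACNNNGC was in 10 of 35 (28.6%, beside 13.3% of all promoters). The ETS core CCGGAAG was in 12 (34.3%, beside 10.3%) and the CCAAT box in 17 (48.6%, beside 34.6%). A SOX core, CATTGT, was in PSMC1 and PSMD1 alone (5.71%, beside 10.8%), and the NKX2-1 core CAAGTG was in 5 (14.3%, beside 11.5%). The interferon element GAAANNGAAA, which was chosen after the values had been seen, was in PSMA4, PSMB4, PSME1 and PSME2 (11.4%, beside 3.57%). Of these 4 genes, PSME1 and PSME2 fell with the SOX2 siRNAs, while PSMA4 and PSMB4 rose. A match is a run of letters in the window and was not tested as a binding site.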

How the data were processed

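RNA sequencing of SHP77 cells was analysed from a table for the siRNA libraries and a table for the shRNA libraries. The deposited values are a signal, a count per gene and library that the authors normalized with DESeq2. Per the submitters' processing notes, cutadapt 2.5, STAR 2.5.2b and the build hg38 were used. Neither the annotation nor the counting tool nor the use of strand is given in the sources used here. All deposited values were whole multiples of a step per library within 0.05 reads, which gave the depth.

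In R 4.3.3, limma 3.58.1 (eBayes with a trend) was fitted on a log2 scale, after adding a pseudocount of 1 to the deposited value, in all libraries of a table, for genes with a mean of at least 10. The pseudocount understates changes of low genes. A knockdown's effect is the mean over both reagents less the control mean. P-values are two-sided and were adjusted by Benjamini-Hochberg over all 16750 (siRNA) or 19068 (shRNA) genes, with a threshold of 0.05. The script was tested on simulated data.

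Alternatives were pseudocounts of 0.5 and 8, no filter, equal library totals, equal totals without mitochondrial and RN7SL genes, quantile normalization, edgeR 4.0.16 and DESeq2 1.42.0 on recovered reads, the compared groups alone, a replicate block, and leaving out each library. The contrasts between reagents of 1 factor (SOX2 or NKX2-1 siRNA 1 against 2) and the background of genes with a mean of at least 1000 were added after seeing the data.

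The subunit genes and the pathway lists were chosen with earlier results of these data known. Values per library are given for PSMB5, PSMB6 and PSMB7 and, in each comparison, for up to 4 rises and 4 falls with the largest change among genes that passed and whose groups did not overlap, and for up to 2 genes of each pathway list with the largest called change. Other genes are named with a value or after their values were seen. Gene positions and promoters are from RefSeq, GRCh38.p14. Levels were not compared between genes, since no exon lengths were used. Some genes of the lists are not reported here.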

Additional observations from a re-analysis of the deposited data

Results flagged for a closer look

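The SOX2 siRNAs changed 3 subunit genes in opposite directions against si-control, and siRNA 1 minus siRNA 2 differed in a test of that difference. The genes were picked for their opposite directions, so that test is no separate support. PSMD6 was -0.30 with siRNA 1 and 0.27 with siRNA 2 (log2 difference -0.57, adjusted p = 3.13e-08). PSMD2 was -0.11 with siRNA 1 and 0.20 with siRNA 2 (difference -0.31, adjusted p = 3.29e-07). PSMD10 was 0.26 with siRNA 1 and -0.22 with siRNA 2 (difference 0.48, adjusted p = 2.75e-05). PSMB6 was -0.10 with NKX2-1 siRNA 1 and 0.11 with NKX2-1 siRNA 2 (difference -0.22, adjusted p = 0.000316).

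In 6 genes the SOX2 siRNAs and the NKX2-1 siRNAs passed in opposite directions against the same si-control libraries. The share of all genes that did so was not counted, so 6 cannot be read as many or few. The direct contrast of the siRNAs also passed. The genes were picked for their opposite directions, and that contrast is the difference of the same estimates, so it is no separate support. PSMB7 was 0.33 with SOX2 siRNAs and -0.24 with NKX2-1 siRNAs (difference 0.57, adjusted p = 7.59e-15). PSMD5 was 0.21 and -0.25 in the same order (difference 0.46, adjusted p = 4.94e-09). PSMB5 was 0.28 with SOX2 siRNAs and -0.11 with NKX2-1 siRNAs (difference 0.39, adjusted p = 1.24e-11). PSMC1 was 0.23 with SOX2 siRNAs and -0.15 with NKX2-1 siRNAs (difference 0.38, adjusted p = 1.34e-07). PSMD8 was 0.20 with SOX2 siRNAs and -0.12 with NKX2-1 siRNAs (difference 0.33, adjusted p = 3.98e-09). PSME4 was 0.22 with SOX2 siRNAs and -0.09 with NKX2-1 siRNAs (difference 0.31, adjusted p = 6.65e-10). With equal library totals the NKX2-1 falls of PSMB5, PSMC1, PSMD8 and PSME4 did not pass, and those of PSMB7 and PSMD5 did.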

How the results depend on the processing

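Of 646 recomputed values for 39 single-gene results, 633 kept their side of the threshold and 13 no longer passed. No value that passed in either fit reversed. Values that passed in neither could change sign: PSMB7 with the circRMST shRNAs ran from -0.10 to 0.08, and PSMB6 with the NKX2-1 siRNAs from -0.01 to 0.06. In 34 results the side of the threshold was kept in every alternative run for them. The exceptions, PSMA1 and PSMD10 in the siRNA libraries and PSMB5 and PSMB6, are given with their values beside the results, except that PSMA1 also did not pass with the SOX2 siRNAs without a filter (0.39, adjusted p = 0.0765) or by DESeq2 (0.38, adjusted p = 0.0539), and PSMD10 with the NKX2-1 siRNAs without a filter (0.18, adjusted p = 0.0683). Of 220 recomputed counts, 188 were within 1.5 times.

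With the SOX2 siRNAs the counts were 25 to 29 higher and 2 lower in every alternative. With equal library totals, the circRMST shRNAs gave 4 higher and 17 lower, beside 3636 and 6513 of all 19068 genes. The NKX2-1 siRNAs then gave 7 higher and 4 lower, beside 4224 and 2643 of all 16750 genes. With totals that leave out mitochondrial and RN7SL genes, the NKX2-1 siRNAs gave 5 higher, and circRMST shRNA 1 against shRNA 2 gave 6 higher and 1 lower. That contrast gave 4 higher without a filter and 6 with quantile normalization. When single libraries were left out, the circRMST shRNAs gave 6 to 10 lower, circRMST shRNA 1 against shRNA 2 gave 6 to 10 higher, and SOX2 siRNA 1 against siRNA 2 gave 2 to 5 higher (5 without SOX2 siRNA 1 replicate 1). NKX2-1 siRNA 1 against siRNA 2, with 1 higher and 15 lower, gave 2 and 6 without a filter and with quantile normalization, 2 and 3 with equal totals, 2 and 5 without mitochondrial and RN7SL genes, 2 higher by edgeR, 0 higher in the compared groups alone, and 0 higher and 5 to 15 lower when single libraries were left out. The cause was not tested.

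Same-numbered libraries did not deviate together over all genes (correlations of -0.109 to 0.047). These correlations cannot exclude a pairing that touches few genes, since most groups have 2 libraries, whose deviations mirror each other. With the replicate block, the counts were 25 higher and 2 lower with the SOX2 siRNAs, 3 and 8 with the NKX2-1 siRNAs, 28 and 3 for SOX2 against NKX2-1 siRNAs, 14 and 10 with the circRMST shRNAs, 11 and 0 for circRMST shRNA 1 against shRNA 2, 2 and 5 for SOX2 siRNA 1 against siRNA 2, and 0 and 11 for NKX2-1 siRNA 1 against siRNA 2, and PSMA1 with the SOX2 siRNAs was 0.31 (adjusted p = 0.105). PSMA1, PSMA2, PSMA6 and PSMD9 have the fewest counts of the subunit genes tested, which limits their results. Why their counts are low was not tested.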
